A study of Schizocardium californicum with 12 samples.

Results

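Rel-2, Nemo, Irak1-1, Tnap3 and Malt1 are 5 of the 27463 annotated genes of the acorn worm *Schizocardium californicum*, and all 5 are named after proteins of the NF-kB signalling pathway. They were selected on their read counts in juveniles, which were lower after irradiation than in controls, so that their juvenile values are given below as a description and without a test. All 5 passed the filter on low counts, as did 20780 genes in all. *S. californicum* is a hemichordate whose swimming larva metamorphoses into a burrowing worm, called a juvenile until it matures. X-rays were given at 120 Gy to the larvae and at 200 Gy to the juveniles, and each library was made from the RNA of 5 whole animals pooled 3 days later. In each stage 3 libraries came from irradiated animals and 3 from controls, 12 in all. The controls received no X-rays, and no strain, genotype or age in days is used here. Since each stage had its own dose, stage and dose cannot be told apart, and in RNA of whole animals fewer cells of a type and less RNA per cell cannot be told apart either.

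NF-kB is a family of transcription factors with a Rel homology domain, held inactive in the cytoplasm by IkB proteins. Receptors of the Toll-like, interleukin and tumour necrosis factor families lead through adaptors, kinases and ubiquitin chains to the IkB kinase complex, which marks IkB for degradation and frees NF-kB to enter the nucleus. The pathway is best known for innate immunity, and in vertebrates it also acts in the response to DNA damage and in cell survival. The 5 genes stand at different steps of it. Irak1-1 is named after IRAK1, a kinase that binds the adaptor MYD88 below Toll-like and interleukin receptors. Malt1 is named after the paracaspase that links CARD proteins and BCL10 to the IkB kinases in vertebrate lymphocytes. Nemo is named after the regulatory subunit of the IkB kinase complex, which binds ubiquitin chains. Rel-2 is 1 of the Rel transcription factors themselves, and Tnap3 is named after TNFAIP3, a ubiquitin-editing enzyme that ends the signal and whose gene is a target of NF-kB in mammals. These roles are those known in vertebrates, and the names are those given in the genome annotation.

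The libraries held between 7675726 and 26974509 gene reads. The 5 genes had from 129 reads, for Malt1 in irradiated juveniles, to 8258 reads, for Nemo in control juveniles, in a library. Over the 12 libraries together, at least 98.64% of the reads of each gene were placed uniquely, and no more than 4.36% lay in introns. In a single library the intron share reached 7.40%, for Malt1 in library 2 of the control larvae. Irak1-1 (SCA04517, 13 exons) and Nemo (SCA03783, 11 exons) lie on chromosome sequence chr3A_Sc2 of genome version v2.0, Malt1 (SCA10141, 16 exons) on chr10A_Sc2, Rel-2 (SCA15142, 14 exons) on chr1A_Sc2 and Tnap3 (SCA22702, 6 exons) on chr4A_Sc2. Levels within a gene are given as normalized counts, which are reads divided by the effective size of the library and scaled to a common size. The check of the groups by cell type markers gave a lower sum of 28 cell division genes in irradiated animals of both stages, with 3938 to 4318 normalized counts against 7010 to 7943 in control larvae, and 3247 to 3538 against 4470 to 5942 in control juveniles. In larvae 15 and in juveniles 17 of the 26 tested genes of that list fell, and 1 rose in juveniles, where 2.05% of all tested genes were called lower in larvae, and 11.1% lower and 10.8% higher in juveniles. A list of 25 genes of motile cilia summed to 80869 to 98313 normalized counts in irradiated juveniles against 47349 to 50174.5 in their controls, with 15 of the 23 tested genes higher, while the range in irradiated larvae (44282 to 55759) enclosed that of their controls (47309.5 to 50149). No gene of either list was at 0 in all 12 libraries, although the cyclin gene Ccnb-3 was at 0 in every juvenile library. The division genes were thus lower together with the 5 genes in both stages, while the cilia genes were higher where the 5 genes were lower in juveniles, and their part in the values of the 5 genes was not tested.

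Irak1-1, the receptor-proximal kinase, had 1829, 2067 and 1623 normalized counts in the 3 control juvenile libraries and 641, 615 and 648 in the 3 irradiated ones. The highest irradiated library thus lay far below the lowest control. On the log2 scale Irak1-1 differed by −1.53 (SE 0.12) between irradiated and control juveniles, which is a level 2.90-fold lower. In control larvae its libraries held 1181, 1045 and 1135 normalized counts, and in irradiated larvae they held 711, 744 and 696. The 2 larval groups also did not overlap, and the irradiated larvae lay slightly above the irradiated juveniles.

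Malt1, the paracaspase, had the lowest mean normalized count of the 5 over the 12 libraries, although in control larvae the mean of Rel-2 was lower (381 against 408). Its control juvenile libraries held 603, 675 and 555 normalized counts and its irradiated juvenile libraries 163, 170.0 and 191. All 3 irradiated libraries lay below the controls, by −1.80 (SE 0.14) on the log2 scale, or 3.48-fold. Larval libraries of Malt1 held 379, 376 and 468 normalized counts in controls and 250.5, 249.7 and 274 after irradiation, again without overlap. Irradiated juveniles had the lowest Malt1 values of the series, below those of the irradiated larvae in every library.

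Nemo, the subunit of the IkB kinase complex, had the most reads. Control juveniles held 5102, 6255 and 5326 normalized counts of Nemo, and irradiated juveniles held 1777, 1782 and 2064. The groups did not overlap, and their difference was −1.57 (SE 0.12) on the log2 scale, or a 2.97-fold lower level. Control larvae held 2213, 2286 and 2433 normalized counts and irradiated larvae 1447, 1333 and 1583. In normalized counts, the level of Nemo in irradiated juveniles was therefore below that in control larvae and above that in irradiated larvae in each library.

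Rel-2, the transcription factor, showed the largest juvenile difference of the 5. Its normalized counts were 1375, 1944 and 1476 in control juveniles and 435, 379.5 and 452 in irradiated juveniles. That difference was −1.92 (SE 0.14) on the log2 scale, or a 3.78-fold lower level, with no overlap. Without library 2 of the control juveniles, which was the highest, it was −1.75. Larval libraries held 360.2, 381 and 403 normalized counts of Rel-2 in controls and 274, 249.7 and 267 after irradiation. Here too every irradiated library lay below every control, on a much lower level than in control juveniles.

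Tnap3, the ubiquitin-editing enzyme, had 2613, 3368 and 2607 normalized counts in control juveniles. The irradiated juvenile libraries had 885, 949 and 960.0, which was 3.07-fold lower (log2 difference −1.62, SE 0.15), with no overlap. Its libraries held 978, 870.2 and 1264 normalized counts in control larvae and 639, 670.1 and 672 in irradiated larvae. The control larvae spread widely, over 203 (SD, n = 3) around a mean of 1038, whereas the irradiated larvae spread over 18.2 around 660.4. The lowest control was still above the highest irradiated library. In juveniles, library 2 of the controls and library 3 of the irradiated animals had the highest value of their group for all 5 genes. All 3 irradiated libraries lay below all 3 controls in 21.1% of all tested genes in juveniles, and nothing is read from the 5 genes here, since this contrast chose them.

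**Figure D1:**
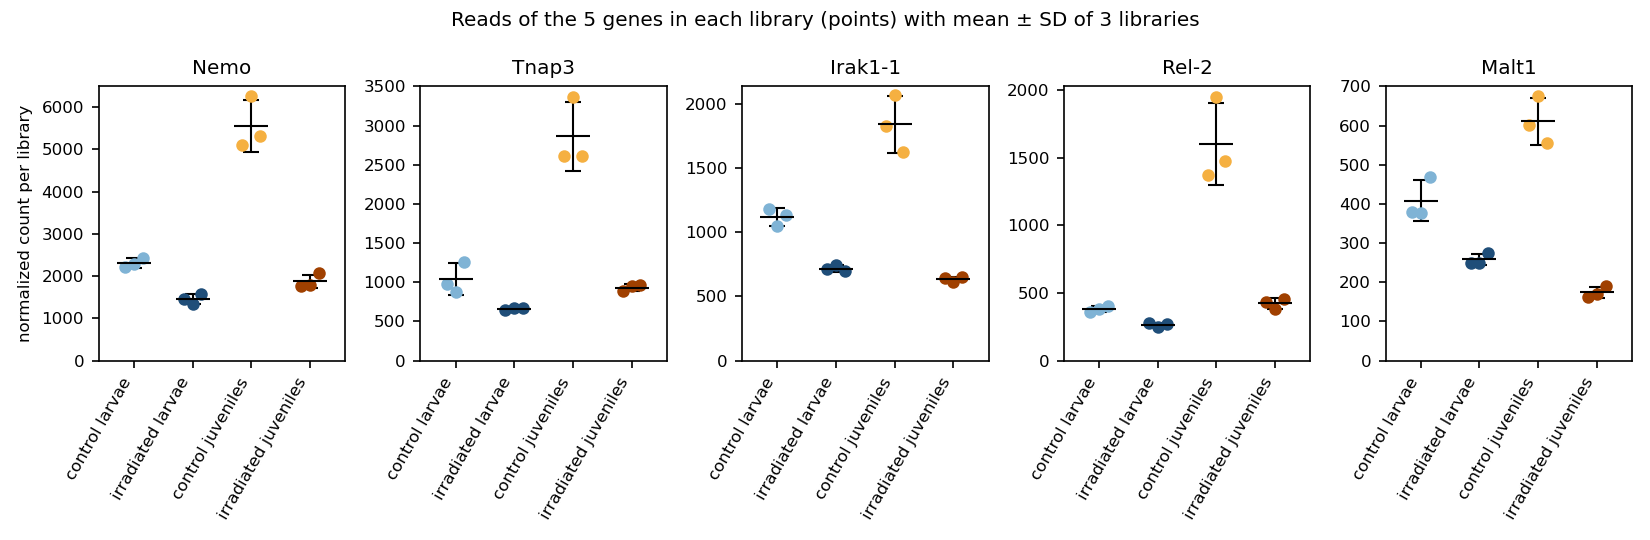
Normalized counts of Nemo, Tnap3, Irak1-1, Rel-2 and Malt1 in each of the 12 libraries (points), with the mean and SD of the 3 libraries of a group (lines), on axes that start at 0. In both stages the irradiated libraries of every gene lie below the controls, and the control juveniles have the highest values, as for Nemo at 5561 ± 611 against 1874 ± 164 after irradiation.

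The genes were selected on juvenile and not on larval read counts, so the larval fold changes were tested. This test was not fully independent of the choice. Its spread was estimated from all 12 libraries, juveniles included, and the genes were chosen with earlier results of these data known. In larvae, 4 of the 5 genes fell after 120 Gy, and all 5 had every irradiated library below every control, where 2.05% of all tested genes were called lower and 11.6% had such a separation. Irak1-1 fell from a mean of 1121 ± 69.0 to one of 717 ± 24.4 normalized counts (± SD, n = 3), which was a log2 change of −0.64 (SE 0.11, adjusted p = 0.0101 in the quasi-likelihood test of edgeR, adjusted by Benjamini and Hochberg's method). For Nemo the mean dropped from 2311 ± 112 to 1454 ± 125 normalized counts (log2 change −0.67, SE 0.12, edgeR adjusted p = 0.0109). These calls held when any 1 library was left out, with adjusted p up to 0.0466 for Irak1-1 and 0.0414 for Nemo.

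The larval falls of Malt1 and Tnap3 were of the same size, but their calls were lost in some fits with 1 library fewer, in most of them with a fold change about as large. Malt1 had a mean of 408 ± 52.1 normalized counts in controls and 258 ± 14.1 after irradiation (log2 change −0.66, SE 0.13, edgeR adjusted p = 0.0178). It was no longer called without library 3 of the control larvae (log2 change −0.55, adjusted p = 0.0566), without library 1 of the irradiated larvae (−0.64, 0.0601) or without library 2 of the irradiated larvae (−0.64, 0.0540). Tnap3 had 1038 ± 203 and 660.4 ± 18.2 (log2 change −0.65, SE 0.15, edgeR adjusted p = 0.0307). Its call ended without library 1 or 3 of the control larvae (adjusted p = 0.0628 and 0.0886) or without library 1, 2 or 3 of the irradiated larvae (0.0922, 0.0740 and 0.0904). The log2 change in these fits was −0.48 without library 3 of the control larvae and between −0.71 and −0.63 in the other 4. Fitted on the 6 larval libraries alone, both genes missed the threshold, with adjusted p of 0.0569 for Malt1 and 0.0716 for Tnap3.

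In larvae the mean of Rel-2 was 381 ± 21.3 normalized counts in controls and 264 ± 12.7 after irradiation, and the log2 change of −0.53 (SE 0.14) missed the threshold (edgeR adjusted p = 0.0546). With the Wald test of DESeq2 (adjusted p = 0.0196), or without library 2 of the control juveniles in the edgeR fit (0.0247), it was called. The 5 larval log2 fold changes spanned only 0.14 and had a median of −0.65, beside a median of 0.0095 over all tested genes. Their largest SE was 0.15. In juveniles the 5 differences ran from −1.92 to −1.53, and each was further from 0 than the larval value of the same gene.

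**Figure D2:**
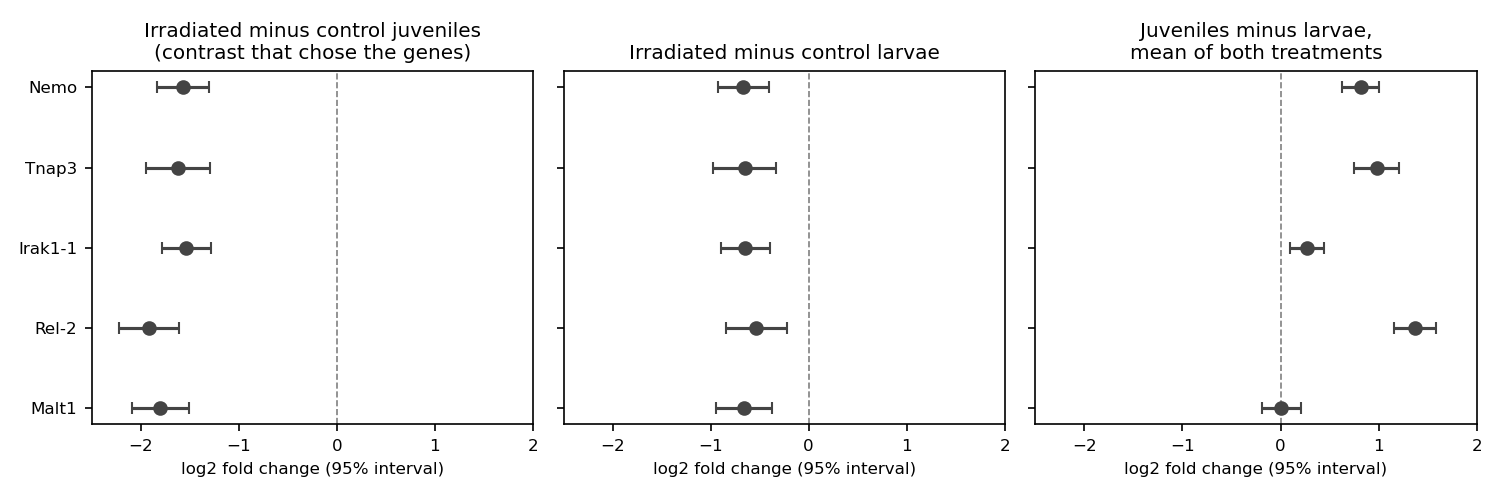
Log2 fold changes of the 5 genes (points) with 95% intervals (bars) for irradiated minus control juveniles, which chose the genes, for irradiated minus control larvae, and for juveniles minus larvae averaged over both treatments. Larval values lie between −0.67 and −0.53, juvenile values between −1.92 and −1.53, and the stage difference runs from 0.0096 for Malt1 to 1.37 for Rel-2.

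The juvenile log2 difference minus the larval one is given without a test, as it contains the contrast that chose the genes. Over all tested genes, 1.6% were called lower and 1.87% higher in this difference. It was −1.39 (SE 0.20) for Rel-2, −1.14 (SE 0.19) for Malt1, −0.97 (SE 0.21) for Tnap3, −0.90 (SE 0.17) for Nemo and −0.89 (SE 0.16) for Irak1-1. Rel-2 had the smallest larval and the largest juvenile difference of the 5 genes.

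The stage difference averaged over both treatments is given as a description too. It uses the juvenile libraries that chose the genes, and for all 5 genes the control juveniles spread more than the irradiated ones (for Rel-2 the coefficient of variation was 19% against 8.96%), so that a choice on a large gap between them can also favour a high average. The averaged log2 difference of juveniles minus larvae was 1.37 (SE 0.10) for Rel-2, 0.98 (SE 0.11) for Tnap3, 0.82 (SE 0.086) for Nemo and 0.27 (SE 0.080) for Irak1-1. Malt1 gave 0.0096, with a 95% interval from −0.19 to 0.21, and its sign changed with the scaling, to −0.050 with library totals only. Of all tested genes, 37% were called higher and 34.2% lower in juveniles in this contrast, and nothing is read from the 5 genes beside these shares.

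That average joined unlike stage differences in controls and in irradiated animals, which share libraries with the contrast that chose the genes and are given as values as well. Between control juveniles and control larvae the log2 differences were 2.06 for Rel-2, 1.46 for Tnap3, 1.27 for Nemo, 0.71 for Irak1-1 and 0.58 for Malt1. For all 5 genes the 3 control juveniles lay above the 3 control larvae, as in 35.4% of all tested genes. Between irradiated juveniles and irradiated larvae the log2 differences were 0.68 for Rel-2, 0.50 for Tnap3, 0.37 for Nemo, −0.17 for Irak1-1 and −0.56 for Malt1. In normalized counts, irradiated juveniles lay above irradiated larvae in all libraries for Rel-2, Tnap3 and Nemo (34.6% of all tested genes). They lay below them for Irak1-1 and Malt1 (32.1%).

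Levels were compared between the genes per length, in the unit TPM, which divides by transcript length and by the size of the library. Nemo had the highest level in every group, with a mean TPM of 131 in control larvae and 86.2 after irradiation, and of 277 in control juveniles and 91.8 after irradiation. Unlike in normalized counts, its irradiated larvae (76.8 to 93.7 TPM) and irradiated juveniles (80.4 to 105 TPM) overlapped. Tnap3 came next in all groups, with a mean TPM of 32.1, 21.4, 78.6 and 25.1 in the same order. In control larvae its libraries overlapped those of Malt1 (27.1 TPM), which in turn overlapped Irak1-1 (26.0 TPM), and Rel-2 was lowest at 15.2 TPM.

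Rel-2 changed its place between the stages. It was the lowest of the 5 in irradiated larvae too, at 11.2 TPM, below Irak1-1 (17.5 TPM) and Malt1 (18.2 TPM), whose libraries overlapped. In control juveniles it was the third, at 57.3 TPM, above Irak1-1 (38.0 TPM) and Malt1 (37.2 TPM), which again overlapped. In irradiated juveniles the order was the same, with Rel-2 at 14.7, Irak1-1 at 12.7 and Malt1 at 10.1 TPM, and no neighbours overlapped.

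Summed over the 5 genes, the level was 231 ± 10.1 TPM in control larvae and 488 ± 37.1 TPM in control juveniles (mean ± SD, n = 3). After irradiation the sums were 155 ± 9.89 TPM in larvae and 154 ± 17.6 TPM in juveniles, and the libraries of these groups overlapped, from 144 to 163 TPM and from 137 to 172 TPM. Nemo made up between 53.4% and 60.7% of the sum in every library. The share of Rel-2 was 6.58% ± 0.29 in control larvae and 11.7% ± 0.81 in control juveniles, and after irradiation it was 7.23% ± 0.31 in larvae and 9.55% ± 0.64 in juveniles. Malt1 took 11.7% ± 0.76 of the sum in control larvae but 7.63% ± 0.42 in control juveniles and 6.55% ± 0.25 in irradiated juveniles.

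**Figure D3:**
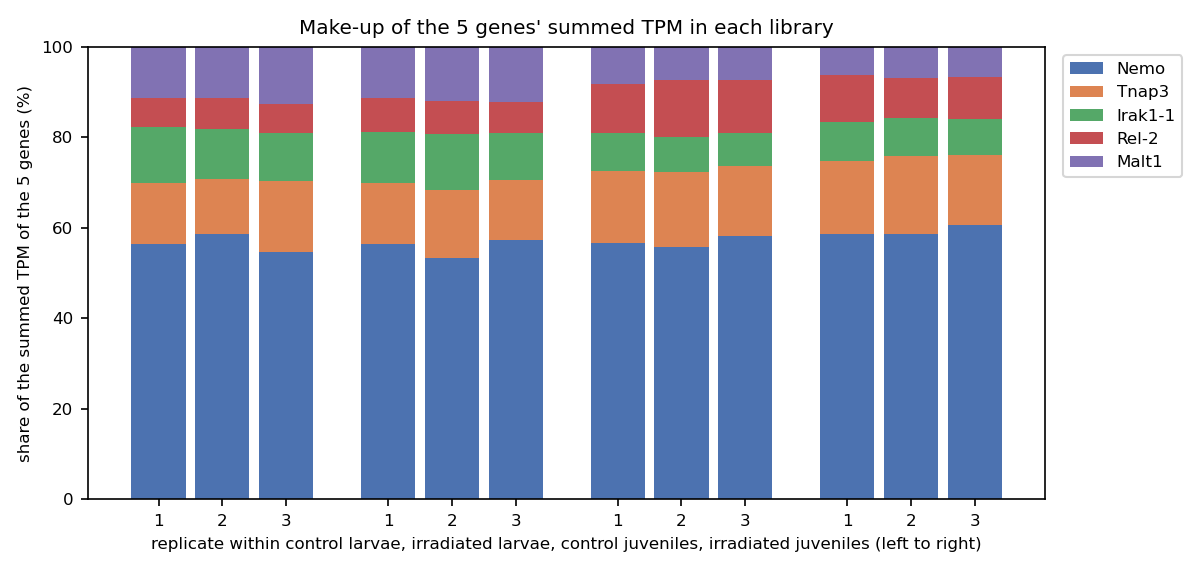
Share of each of the 5 genes in their summed TPM (vertical axis, percent) in each library, with the 3 replicates of each group, larvae on the left and juveniles on the right, controls before irradiated animals. Nemo holds 53.4% to 60.7% throughout, and Rel-2 takes a larger share in juveniles (11.7% in controls) than in larvae (6.58% in controls).

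Reads across exon junctions, which come from spliced RNA, were fewer after irradiation for all 5 genes in both stages. They are part of the gene reads counted above and so no separate measurement, and the juvenile ratios belong to the contrast that chose the genes. The log2 ratio of irradiated to control juveniles in such reads was −2.11 for Rel-2, −1.87 for Malt1, −1.63 for Tnap3, −1.57 for Nemo and −1.38 for Irak1-1. In larvae it was −0.79 for Tnap3, −0.72 for Malt1, −0.71 for Nemo, −0.66 for Rel-2 and −0.47 for Irak1-1. These are ratios of group means without a test.

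The profiles of the 5 genes over the 12 libraries were compared by Pearson's r of log2 normalized counts, as a description, since the libraries share their stage and treatment. Nemo and Tnap3 were the most alike pair (r = 0.986), and Rel-2 joined them with r of 0.976 to Nemo and 0.982 to Tnap3. Irak1-1 and Malt1 formed the other close pair (r = 0.965), and the least alike were Rel-2 and Malt1 (r = 0.717). The 2 genes of the second pair are those whose stage difference was smallest.

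Among 17579 genes with a mean of at least 20 normalized counts, the 3 most like each of the 5 were found in the same way. For Rel-2 they were Mesh-5 (r = 0.99), Unchar_736 (0.989) and Trpa1-12 (0.988). For Nemo they were Dtx3l-42 (0.988), Unchar_736 (0.987) and Tnap3 (0.986), and for Tnap3 they were Dtx3l-42 (0.989), Par14-15 (0.989) and Trpa1-12 (0.987). Irak1-1 was most like Par14-22 (0.972), Fes (0.97) and Neul4-1 (0.969). Malt1 was most like Mfha1-3 (0.982), Rnf31-2 (0.979) and Cyld-2 (0.97). Rnf31-2, named after the catalytic subunit of the linear ubiquitin ligase, and Cyld-2, named after a deubiquitinase that takes such chains apart, are genes of the pathway too.

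The other genes of the pathway were taken from 8 lists of 94 gene names, of which 41 were found, with 112 genes besides the 5. Of the 86 that passed the filter, 27 were called lower in irradiated juveniles (31.4%, beside 11.1% of all tested genes) and 1 was called higher (1.16%, beside 10.8%). Their median log2 fold change was −0.41, beside −0.040 over all tested genes. The lists were chosen with earlier results of these data known, so these shares and medians are a description. The Ripk4 family, which makes up 27 of the 112 genes, had 1 of its 15 tested genes lower, so that 26 of the 71 others were lower. The larval response gave 4 lower genes among the 86 (4.65%) and 0 higher by edgeR (beside 2.05% and 1.87% of all tested genes), where 2 were higher at an unadjusted p under 0.05, and DESeq2 called 8 lower and 0 higher. Between 21 and 27 were called lower in juveniles when single libraries were left out.

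Of the Rel transcription factors, 4 of the 6 other tested genes fell in juveniles. Rel-1, the other gene of the name Rel, fell from 1249 ± 66.9 to 572 ± 152 normalized counts (log2 fold change −1.12, edgeR adjusted p = 0.000804). Its libraries held 1317, 1247 and 1184 in controls and 474, 496 and 747 after irradiation, so the groups did not overlap. Nfkb1-5, Nfkb1-1 and Nfkb1-3, named after the subunit that is made as a longer precursor, fell by 1.23, 1.22 and 0.89 on the log2 scale.

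Of the list of IkB inhibitors, 4 of 7 tested genes fell in juveniles, and the fall of Bcl3-5 was of the size of that of Rel-2. The list also holds Ikbp1-1, which was not called (log2 fold change 0.63, edgeR adjusted p = 0.0930). Whether its protein is an IkB protein was not examined. Bcl3-5 had 1338, 1497 and 1263 normalized counts in control juveniles and 361, 327 and 351 in irradiated ones, a log2 fold change of −1.98 (SE 0.18, edgeR adjusted p = 4.43e-05). Ikbz fell by 1.65 on the log2 scale, from 1559 ± 123 to 498 ± 17.6 normalized counts, and Bcl3-1 and Bcl3-3 fell by 1.11 and 1.06. BCL3 and IKBZ are IkB proteins that act in the nucleus in vertebrates.

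Bcl3-5 and Ikbz fell in larvae as well. Bcl3-5 fell from 599 ± 128 to 185 ± 44.5 normalized counts (log2 fold change −1.69, edgeR adjusted p = 0.000458) and Ikbz from 986 ± 199 to 456 ± 77.6 (−1.11, edgeR adjusted p = 0.00328), and both calls held when any 1 library was left out. The other larval falls were those of Nfkb1-1 (−1.13, edgeR adjusted p = 0.0314) and Rnf31-2 (−0.49, edgeR adjusted p = 0.0407). Leaving out 5 of the 12 libraries in turn ended the call of Nfkb1-1 (adjusted p up to 0.103, log2 change from −1.28 to −0.76 over all 12 fits) and leaving out 10 of them in turn ended that of Rnf31-2 (up to 0.125, from −0.55 to −0.44). All 4 of these genes were also called lower in juveniles.

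Among the kinases of the IKK list, 3 of 5 tested genes besides Nemo fell in juveniles. Ikka-2, named after a catalytic IkB kinase, went from 415, 675 and 338 to 154, 181 and 199 normalized counts (log2 change −1.41, edgeR adjusted p = 0.00154). M3k14, named after the kinase that starts the non-canonical branch of the pathway, fell by 0.82.

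Of the list of adaptors and kinases below Toll-like and interleukin receptors, 6 of 16 tested genes besides Irak1-1 fell in juveniles. Traf6-3, named after a ubiquitin ligase that IRAK kinases activate, fell by 1.50 on the log2 scale. Irak1-2, the other gene named after IRAK1, fell from 111 ± 7.50 to 50.9 ± 13.6 normalized counts (log2 fold change −1.10, edgeR adjusted p = 0.00409). Its level was 45.2 ± 3.66 in control and 42.7 ± 7.74 in irradiated larvae (log2 fold change −0.084, edgeR adjusted p = 0.898).

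Of the list of ubiquitin-editing enzymes and their partners, 5 of 12 tested genes besides Tnap3 fell in juveniles. Rnf31-2 fell by 1.58 (edgeR adjusted p = 1.34e-05), from 1857 ± 254 to 619.6 ± 15.1 normalized counts, and Cyld-2 by 1.33 (edgeR adjusted p = 3.92e-05), from 1759 ± 180.0 to 701 ± 60.6. Hoil1-2 and Hoil1-1, named after a partner of RNF31 in the linear ubiquitin ligase, fell by 1.06 and 0.86, and 21.7% of the reads of Hoil1-2 lay in introns. The list thus held falls of genes that build linear ubiquitin chains and of genes that remove or edit ubiquitin chains.

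In the remaining branches a smaller share of the tested genes was called lower. With only 5 and 2 tested genes, the counts of the TAK1 and CARD lists cannot be told apart from the 11.1% of all tested genes. The TAK1 list holds genes named after the kinase that activates the IkB kinases, and other genes grouped with it. Of its 5 tested genes, edgeR called 0 lower in juveniles (1 at an unadjusted p under 0.05, and 1 by DESeq2). It called 1 higher, Ub2v2-1, which rose by 0.80 on the log2 scale and whose place in this branch was not examined. Neither of the 2 tested genes that accompany Malt1 in the CARD list was called by edgeR, while 1 was lower at an unadjusted p under 0.05 and by DESeq2. Both had a negative log2 fold change, −0.44 for Car11-1 and −1.07 for Car11-2. Only 57.8% and 41.7% of their reads were placed uniquely. In the tumour necrosis factor receptor list 5 of 33 tested genes fell, a share of 15.2% near the 11.1% of all tested genes. This share depends on the Ripk4 family, which made up 15 of the 33 and had 1 lower gene, Ripk4-27, which fell by 0.76. The juvenile calls of Ikka-4, Irak4-2, Myd88-1, Ub2v2-1, Ripk1-4, Birc3-2 and Fadd-6 each ended when some single libraries were left out, while the log2 fold change kept its sign in all of these fits. That of Ub2v2-1 ended without library 1 or 3 of the control juveniles (adjusted p = 0.0607 and 0.0609) or library 3 of the irradiated juveniles (0.0714), that of Myd88-1 without library 1 of the control juveniles (0.0642) and that of Birc3-2 without library 1 of the irradiated juveniles (0.0605). The highest adjusted p was 0.165 for Ikka-4 and 0.0536 for Irak4-2, both without library 2 of the control juveniles. It was 0.0587 for Ripk1-4 without library 3 of the control juveniles and 0.0883 for Fadd-6 without library 1 of the irradiated juveniles.

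**Figure D4:**
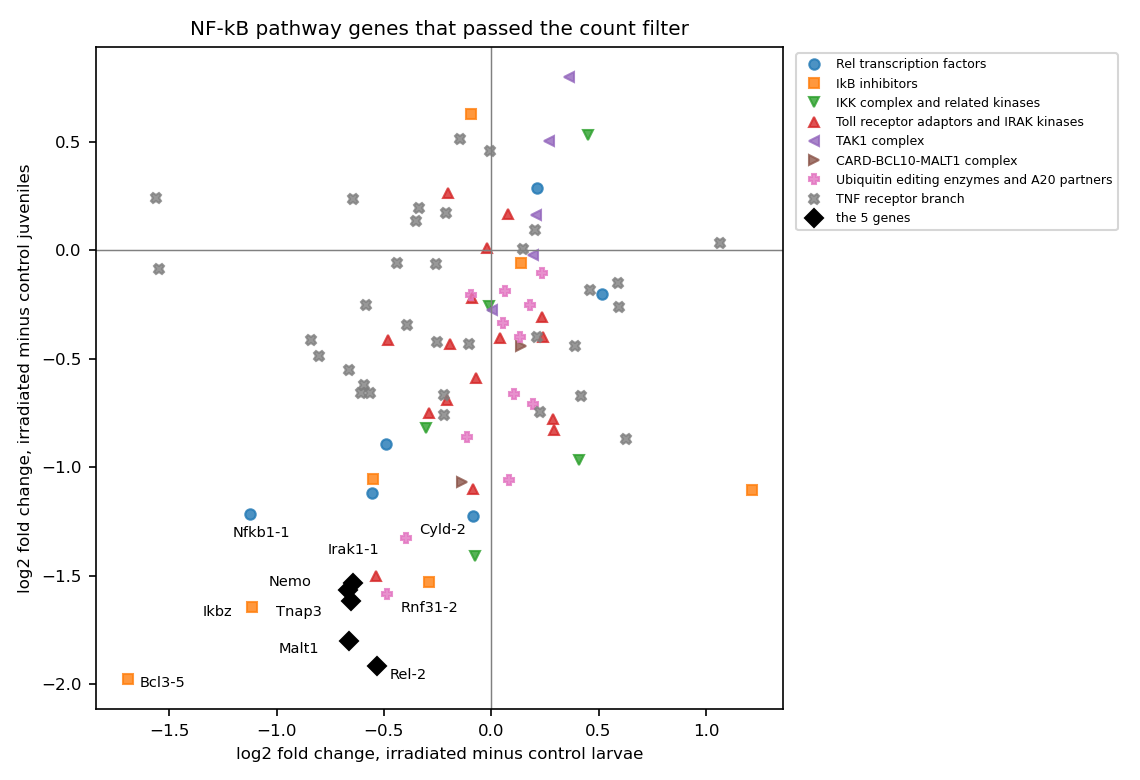
Log2 fold change after irradiation in larvae (horizontal axis) against that in juveniles (vertical axis) for each tested gene of the 8 pathway lists, by list, with the 5 genes as black diamonds. The 5 genes sit between −1.92 and −1.53 in juveniles, where the 86 others have a median of −0.41, and Bcl3-5 (−1.69 in larvae, −1.98 in juveniles) lies furthest to the lower left.

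Over both treatments, 43 of the 86 other pathway genes were called higher in juveniles than in larvae and 13 lower, which is 50% and 15.1% beside 37% and 34.2% of all tested genes. The ubiquitin-editing list had 1 higher and 6 lower of 12, whereas the tumour necrosis factor receptor list had 23 higher and 3 lower of 33. The Ripk4 family supplied 11 of these 23 higher genes. Without that family, 45.1% of the other pathway genes were called higher and 16.9% lower. Ripk1-8, Ripk1-9 and Ripk1-10 were among the 23 as well, and only 0.389%, 0% and 0% of their reads were placed uniquely.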

How the data were processed

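mRNA libraries of the 12 pools were sequenced by the authors in a single lane as 75-bp read pairs and counted per gene in CLC Genomics Workbench against genome version v2.0. Per library the authors deposited counts (total gene reads, which are exon plus intron reads, and unique reads), TPM and RPKM. The RPKM values were not used. The genes' neighbours could not be named, as the deposited tables used here hold no gene positions. The sharing of reads between near copies was varied only by a fit on unique reads. That across strands could not be varied. The paper calls the replicates independent and describes them as pools, while the labels give only dose, stage and a number. The p-values measure the spread between pools.

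Counts were fitted in R 4.3.3 with edgeR 4.0.16 by the quasi-likelihood test on all 12 libraries with 1 mean per group, after filterByExpr (20780 of 27463 genes, 99.9% of reads) and TMM normalization. All p-values are two-sided and Benjamini-Hochberg adjusted over every tested gene, with 0.05 as the limit for a call. The biological coefficient of variation was 0.208. Replicates differed by 8.53 to 51.9 times the counting noise, so no library was a copy. Intervals have a level of 95%. With 3 against 3 libraries an exact permutation test cannot go below 0.1, and none was run.

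The 5 genes and the lists were chosen with earlier results of these data known. Of the lists, up to 4 genes a role were eligible by name: those called in juveniles with the largest log2 fold change and a mean of at least 20 normalized counts. Same-named genes were added, and for each of the 5 genes the 3 most alike. Some other genes are named where they bear on what a list holds or on how its reads were placed. Of the eligible genes, those whose call was lost without some single libraries are named only as such. Alternatives were other scalings, no filter, DESeq2 1.42.0, limma 3.58.1 voom, fits by stage, a replicate block, unique or exon reads, an adjusted p of 0.01, and leaving out each library. A test of the stage difference of the 5 genes had been planned, and its p-values are not given because the genes were chosen on the same juvenile libraries. The script was tested on simulated data.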

Additional observations from a re-analysis of the deposited data

Results flagged for a closer look

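In 6 pathway genes besides the 5, the juvenile response differed from the larval response in the same fit (quasi-likelihood test of edgeR, p adjusted after Benjamini and Hochberg over all tested genes, of which 1.6% had a lower and 1.87% a higher juvenile response). The difference on the log2 scale was −1.14 (SE 0.18, adjusted p = 0.0116) for Nfkb1-5, −1.10 (SE 0.17, adjusted p = 0.0113) for Rnf31-2 and −0.93 (SE 0.16, adjusted p = 0.0141) for Cyld-2. These 3 held when any 1 library was left out.

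Hoil1-2 gave −1.14 (SE 0.26, adjusted p = 0.0328), Ripk1-4 −1.50 (SE 0.33, adjusted p = 0.0312) and Bcl3-1 −2.32 (SE 0.55, adjusted p = 0.0403). Each of these 3 was lost when any of 8 (Hoil1-2 and Ripk1-4) or 10 (Bcl3-1) of the 12 libraries was left out, although the difference remained between −1.28 and −1.02 for Hoil1-2, between −1.69 and −1.31 for Ripk1-4 and between −2.63 and −1.84 for Bcl3-1. The adjusted p rose to 0.0852 for Hoil1-2 without library 2 of the control larvae, to 0.0803 for Ripk1-4 without library 1 of the irradiated juveniles and to 0.137 for Bcl3-1 without library 1 of the irradiated larvae. Bcl3-1 had only 2.81 ± 0.71 normalized counts in control and 6.06 ± 3.41 in irradiated larvae, against 615 ± 110 in control juveniles. Of the reads of Ripk1-4, 23.6% lay in introns. In larvae Nfkb1-5 had 2025 ± 55.9 normalized counts in controls and 1912 ± 57.7 after irradiation, and in juveniles it had 3424 ± 589 and 1463 ± 143.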

How the results depend on the processing

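Under the alternatives that used all libraries, the juvenile and the juvenile minus larval differences of the 5 genes, which have no test, kept their direction and moved by less than the spread between replicates, and the stage differences of Rel-2, Nemo, Irak1-1 and Tnap3 kept their direction. All 5 larval results changed their side of the threshold under at least 1. The larval fold change of Rel-2 was called with DESeq2 (−0.55, adjusted p = 0.0196). Those of Tnap3 and Malt1 missed the threshold in the fit by stage (−0.65 and −0.66), and those of Nemo (−0.67), Irak1-1 (−0.64), Tnap3 (−0.65) and Malt1 (−0.66) did at an adjusted p of 0.01. The stage difference of Malt1 changed sign with library totals (−0.050) and without the filter (−0.023). Scalings moved the median of all genes by less than 0.1. The numbers of pathway genes besides the 5 lower in larvae (4) were 8 with DESeq2 and 2 in the fit by stage and at 0.01. Those higher in juveniles (1) were 2 by stage and 0 at 0.01, and those with a lower juvenile than larval response (6) were 11 with library totals, 12 with DESeq2 and 0 at 0.01. All genes called lower in larvae (425) ranged from 100 to 870 and higher (389) from 64 to 785. In juveniles, genes lower (2297) ranged from 1086 to 2630.

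With single libraries left out, larval fold changes ranged from −0.59 to −0.49 for Rel-2, −0.76 to −0.48 for Tnap3 and −0.73 to −0.55 for Malt1. The juvenile difference of Rel-2 ranged from −2.01 to −1.75 and its difference between stages from −1.48 to −1.22. The stage difference of Malt1 ranged from −0.045 to 0.062, and was −0.023, −0.0055, −0.030 and −0.029 in the other fits in which it was below 0. The larval value of Hoil1-2 ranged from −0.0095 to 0.20. Pathway genes lower in larvae ranged from 2 to 4, higher in juveniles from 0 to 2, and with a lower juvenile than larval response from 3 to 6.

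Same-numbered libraries did not deviate together (r from −0.067 to 0.054), so replicate numbers were not used as pairs in the main fit. These values cannot exclude that same-numbered pools shared a culture or batch. With the replicate block the larval fold change of Tnap3 was −0.63 (adjusted p = 0.0552), and the 3 pathway counts above were 2, 2 and 3. The lowest libraries held 129 reads of Malt1 and 208 of Rel-2. The causes of these changes were not tested.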
